A study of Mus musculus with 4 samples.

Results

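Iron handling in haematopoietic cells is carried out by a small set of proteins, and 9 genes for them were read here in KL cells (marrow progenitors of the myeloid series, sorted as Lin-, cKIT+ and Sca-1-). The genes were chosen by symbol for their roles in uptake (*Tfrc*, *Slc11a2*), delivery to mitochondria (*Slc25a37*), storage (*Fth1*, *Ftl1*), export (*Slc40a1*), sensing (*Aco1*, *Ireb2*) and release from heme (*Hmox1*). All 9 were among the 12067 genes of the deposited count table. The libraries came from donor cells, sorted as CD45.2+, of *Ptprca* recipients that had received whole bone marrow 20 weeks earlier. Donors of both genotypes carried the floxed *Bcor* allele on their single X chromosome. The BcorΔE9-10 donors (scl-Cre-ERT +; Bcorfl/y, 2 libraries) also carried a tamoxifen-inducible Cre driven by a stem cell element of *Scl*, and deletion of the floxed exons leaves a truncated Bcor protein. The BcorWT donors (Bcorfl/y, 2 libraries) had no Cre, and by the study's methods the control mice had been given tamoxifen as well. By the study's methods recipients were irradiated below the lethal dose, which spares part of the host's marrow, and the CD45.2 gate selects the donor cells. The labels do not say whether each library was 1 recipient, and with 2 libraries per genotype the p-values measure only the spread between these libraries, which may be technical.

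Transferrin-bound iron enters a cell through the transferrin receptor, is moved out of the endosome by Slc11a2 (DMT1), and is then used in mitochondria, stored in ferritin or exported through ferroportin (Slc40a1). The supply is balanced after transcription by 2 iron regulatory proteins, Irp1 (encoded by *Aco1*) and Irp2 (encoded by *Ireb2*). In iron-poor cells these bind a hairpin called the iron-responsive element, which blocks translation when it lies in the 5′ untranslated region (UTR) and stabilises the transcript when it lies in the 3′ UTR. Developing red cells are the main consumers of iron in the marrow, and macrophages recycle it from old red cells.

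The hairpins themselves are shown because their place, in the 5′ or the 3′ UTR, differs between the iron genes that hold one. The motif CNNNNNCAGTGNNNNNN was searched on the transcribed strand of the annotated UTRs of all coding transcripts in GENCODE M21 (GRCm38, the mm10 build the study used), and a match also required the 5 bases before the CAGTGN loop to pair with the 5 bases after it, G-T pairs included. In 5′ UTRs it was found in 3 of the 9 iron genes and in 31 of all 20899 coding genes with such a region (0.148%). In 3′ UTRs it was found in 1 of the 9 and in 129 of 21022 (0.614%). Each element is written 5′ to 3′ with the 6 bases of the loop in capitals:
*Fth1* 5′ UTR, chr19:9982732-9982760, plus strand: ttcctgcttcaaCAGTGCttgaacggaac
*Ftl1* 5′ UTR, chr7:45459779-45459807, minus strand: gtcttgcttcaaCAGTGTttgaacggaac
*Slc40a1* 5′ UTR, chr1:45925465-45925493, minus strand: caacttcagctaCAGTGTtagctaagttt
*Tfrc* 3′ UTR, chr16:32631219-32631247, plus strand: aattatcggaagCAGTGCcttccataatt
*Tfrc* 3′ UTR, chr16:32631598-32631626, plus strand: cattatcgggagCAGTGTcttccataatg
*Tfrc* 3′ UTR, chr16:32631663-32631691, plus strand: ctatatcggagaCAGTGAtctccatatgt
*Tfrc* 3′ UTR, chr16:32631710-32631738, plus strand: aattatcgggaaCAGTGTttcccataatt
*Tfrc* thus held 4 matches in a row, and both ferritin genes and *Slc40a1* held 1 each. No match was found for *Slc11a2*, *Slc25a37*, *Aco1*, *Ireb2* and *Hmox1*, which says only that these letters with this pairing are not in their annotated UTRs. A match is a description of sequence and not a measured binding site.

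The libraries were Quant-seq libraries, in which reads come from the 3′ end of each transcript and are counted once per read. Total counts ranged from 3825289.5 to 6253100.5, and levels are given as CPM, counts per 1000000 counts of the library after scaling by edgeR's TMM factors, on which 3 counts stood for 0.489 to 0.876 CPM. A single non-coding transcript, *Gm42418*, held 14.3 to 16.3% of the counts in BcorΔE9-10 but 27.9 and 1.43% in BcorWT replicates 1 and 2. Between the BcorWT libraries the Pearson correlation of log2 CPM across genes was 0.893, the lowest of the 6 pairs. *Bcor* had 104 and 113 counts in BcorΔE9-10 and 58 and 79 in BcorWT, and because the reads lie at the 3′ end, outside the deleted exons, they do not check the genotype. The labelled cell type was present, with *Kit* at 29.4 to 61.9 CPM and *Mpo* at 4284 to 6888.5 CPM, while transcripts of maturing neutrophils such as *Ngp* were also abundant at 10206 to 54004 CPM.

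Under BcorΔE9-10 against BcorWT, 2 of the 12067 genes tested (0.0166%) reached an adjusted p under 0.05 in edgeR's quasi-likelihood test, and none of the 9 iron genes was among them. The count of iron genes with an adjusted p under 0.05 was 0 in edgeR, 0 in limma-voom and 0 in DESeq2, and 0 had an unadjusted p under 0.05 in edgeR, where 4.42% of all genes did (1.34% higher and 3.07% lower in BcorΔE9-10). Of the 9 genes, 4 had a positive and 5 a negative log2 fold change, with a median of -0.14 beside -0.03 over all genes tested, of which 47.7% were positive. The sign of the iron gene median was not stable. It was 0.00130 without BcorWT replicate 1 and 0.085 without BcorWT replicate 2. With at least 10 counts in every library, which drops *Hmox1*, it was -0.03. The libraries of the genotypes did not overlap for 4 of the 9, *Tfrc* and *Slc25a37* with higher and *Slc11a2* and *Hmox1* with lower values in BcorΔE9-10. Over all genes 33.9% did not overlap (16.8% higher and 17.1% lower), so 4 of 9 is read against that share. In bulk libraries fewer cells of a type and less RNA per cell cannot be told apart.

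**Figure D1:**
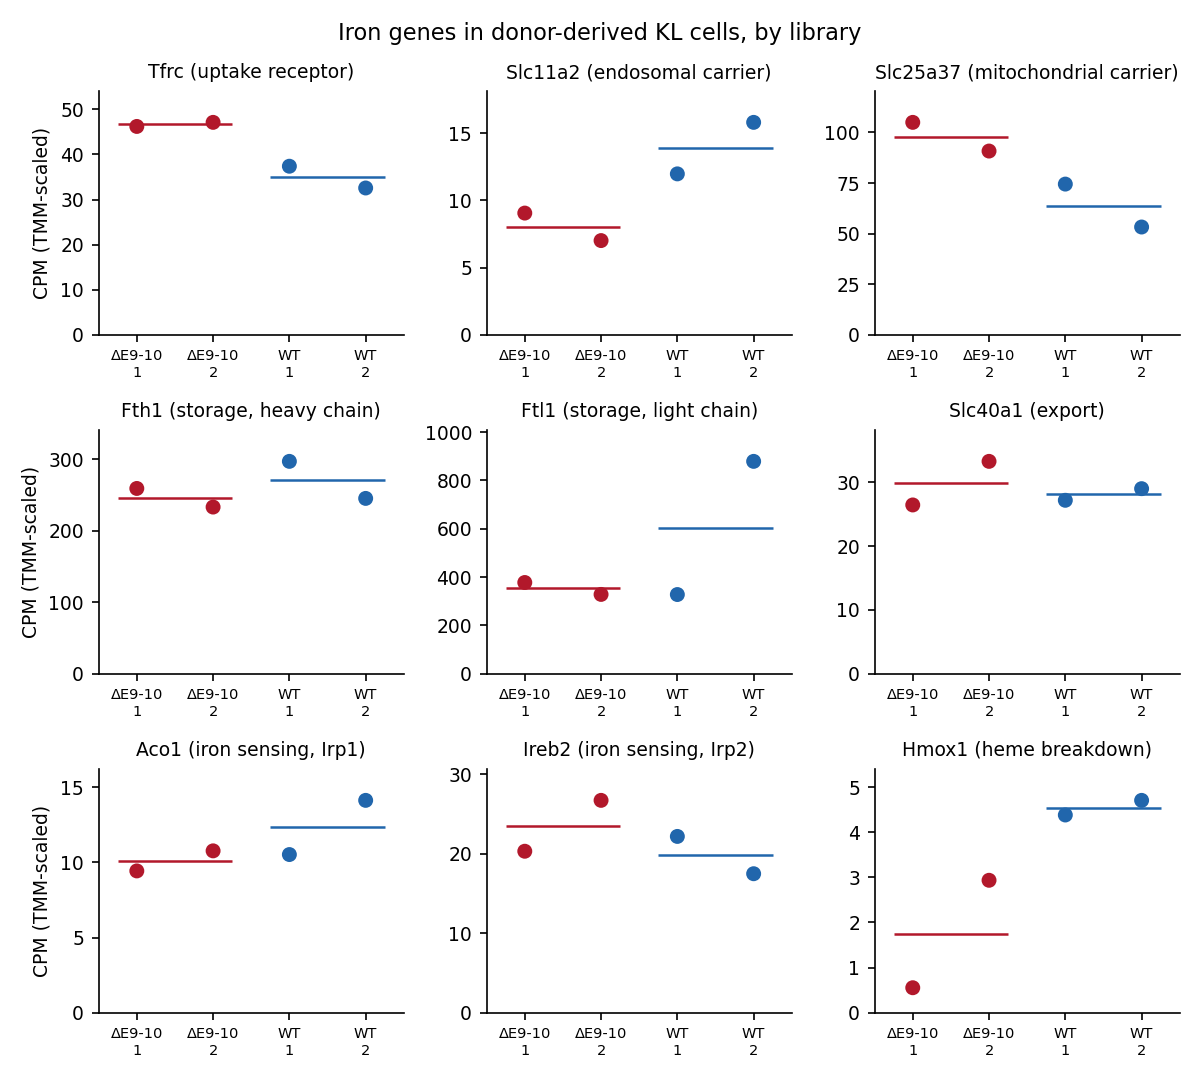
Level of each iron gene in CPM (linear axes from 0) in the 4 libraries, with points for single libraries and a line at the mean of each genotype. *Tfrc* and *Slc25a37* lay higher in both BcorΔE9-10 libraries, *Slc11a2* and *Hmox1* lower, and *Ftl1* stood out at 879 CPM in BcorWT replicate 2.

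Iron uptake was read from *Tfrc* and *Slc11a2*. *Tfrc* (ENSMUSG00000022797, chromosome 16 from 32608920 to 32632794), the transferrin receptor, had 250 and 289 counts in BcorΔE9-10 and 128 and 173 in BcorWT. This was 46.2 and 47.1 CPM against 37.4 and 32.6 CPM. The BcorΔE9-10 libraries nearly coincided and both lay above both BcorWT libraries. The mean level was 46.7 ± 0.640 CPM (SD, n = 2) against 34.97 ± 3.41 CPM, a log2 fold change of 0.42 (standard error 0.31, edgeR adjusted p = 0.945) with a 95% interval from -0.29 to 1.13. *Slc11a2* (ENSMUSG00000023030, chromosome 15 from 100387898 to 100425072), the carrier that moves iron out of the endosome, had 49 and 43 counts in BcorΔE9-10 and 41 and 84 in BcorWT. In CPM these were 9.06 and 7.01 against 11.97 and 15.8, again without overlap but in the opposite direction. The log2 fold change was -0.80 (standard error 0.43, edgeR adjusted p = 0.945), with a 95% interval from -1.79 to 0.20. Exons of *Slc11a2* overlap exons of the coding gene *Gm5475* on the opposite strand. Since the counting is not stated to use strand, reads from the shared stretch may not be told apart. Whether that stretch holds the 3′ end, where the reads lie, was not checked. The receptor and the carrier of the same route therefore had values of opposite sign in BcorΔE9-10, and neither passed the test.

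Delivery of iron to mitochondria depends in blood cells on *Slc25a37* (mitoferrin 1), the carrier of the inner mitochondrial membrane that feeds heme and iron-sulfur cluster synthesis. *Slc25a37* (ENSMUSG00000034248, chromosome 14 from 69241848 to 69285112) had 568 and 557 counts in BcorΔE9-10 and 255 and 283 in BcorWT. It stood at 105 and 90.8 CPM against 74.5 and 53.3 CPM, so both BcorΔE9-10 libraries lay above both BcorWT libraries. The mean level was 97.9 ± 10.0 CPM against 63.9 ± 15.0 CPM (SD, n = 2). The log2 fold change was 0.62 (standard error 0.33, edgeR adjusted p = 0.945) with a 95% interval from -0.14 to 1.38, the lowest unadjusted p of the 9 genes. It was 0.39 without BcorWT replicate 2 and 0.87 without BcorWT replicate 1. A row named *Gm16867* matches its transcript at 100% identity over 382 bases and had 39 and 24 counts in BcorΔE9-10 and 23 and 43 in BcorWT, so the counting could have split reads with it. *Gm31748* and *Gm27223* overlap exons of *Slc25a37* on the opposite strand, and reads from the shared stretches may not be told apart either. Whether these stretches hold the 3′ end was not checked. The paralogue *Slc25a28* (mitoferrin 2) stood at 19.4 and 24.6 CPM in BcorΔE9-10 and 25.1 and 25.03 CPM in BcorWT, a log2 fold change of -0.19.

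Iron storage was read from the heavy and light chains of ferritin, the protein shell in which iron is kept as a mineral. *Fth1* (ENSMUSG00000024661, chromosome 19 from 9980598 to 9985098), the heavy chain, which oxidises incoming iron, had 1402 and 1430 counts in BcorΔE9-10 and 1017 and 1303 in BcorWT. Its levels were 259 and 233 CPM against 297 and 245 CPM and overlapped between the genotypes. The log2 fold change was -0.14 (standard error 0.32, edgeR adjusted p = 0.974), with a 95% interval from -0.87 to 0.59. *Ftl1* (ENSMUSG00000050708, chromosome 7 from 45457944 to 45459884), the light chain, which supports mineral formation in the core, had 2044 and 2015 counts in BcorΔE9-10 and 1123 and 4672 in BcorWT. In CPM this was 378 and 328 in BcorΔE9-10, 328 in BcorWT replicate 1 and 879 in BcorWT replicate 2. The other libraries were thus alike and BcorWT replicate 2 alone was high. The log2 fold change of -0.77 (standard error 0.48, edgeR adjusted p = 0.945) rested on that library. It was 0.11 without BcorWT replicate 2, whereas without BcorWT replicate 1 it was -1.32. Each of these fits leaves 1 library in BcorWT, so only the size of the change is given here.

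The light chain has copies in the genome, and 5 rows of the table matched the *Ftl1* transcript at 90% identity or more. The annotation gives *Ftl1-ps1* as protein-coding and the others as processed pseudogenes. *Ftl1-ps1*, on chromosome 13 from 74399694 to 74407346, differs from *Ftl1* at 4 of 910 aligned bases, so reads of the pair can hardly be assigned with certainty. *Ftl1-ps1* had 240 and 434 counts in BcorΔE9-10 and 138 in BcorWT replicate 1, but 4092 in BcorWT replicate 2. It made up 9.77% (95% Wilson interval 8.66 to 11.01%) and 16.98% (15.6 to 18.5%) of the counts of *Ftl1* and its copies in BcorΔE9-10, 10.5% (8.94 to 12.3%) in BcorWT replicate 1 and 44.2% (43.2 to 45.3%) in BcorWT replicate 2. These intervals cover counting error only, since no molecular identifiers are described. *Ftl2-ps* had 41 and 35 counts in BcorΔE9-10 and 15 and 208 in BcorWT, and *Gm15590* had 82 and 39 against 27 and 241. *Ftl1-ps2* was also highest in that library, with 28 counts in BcorWT replicate 2 and 5 to 15 elsewhere. *Gm12164* did not, with 39 and 18 counts in BcorΔE9-10 and 9 and 8 in BcorWT. With the copies added, the light chain stood at 454 and 417 CPM in BcorΔE9-10 and 385 and 1740 CPM in BcorWT, and the log2 fold change moved from -0.77 to -1.29, with an adjusted p of 0.945 in edgeR. A short RNA gene inside *Ftl1*, *Gm22133*, also had its own row, at 88.0 and 64.7 CPM in BcorΔE9-10 and 86.4 and 117 CPM in BcorWT, and the antisense gene *Gm10252* overlaps its exons.

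**Figure D2:**
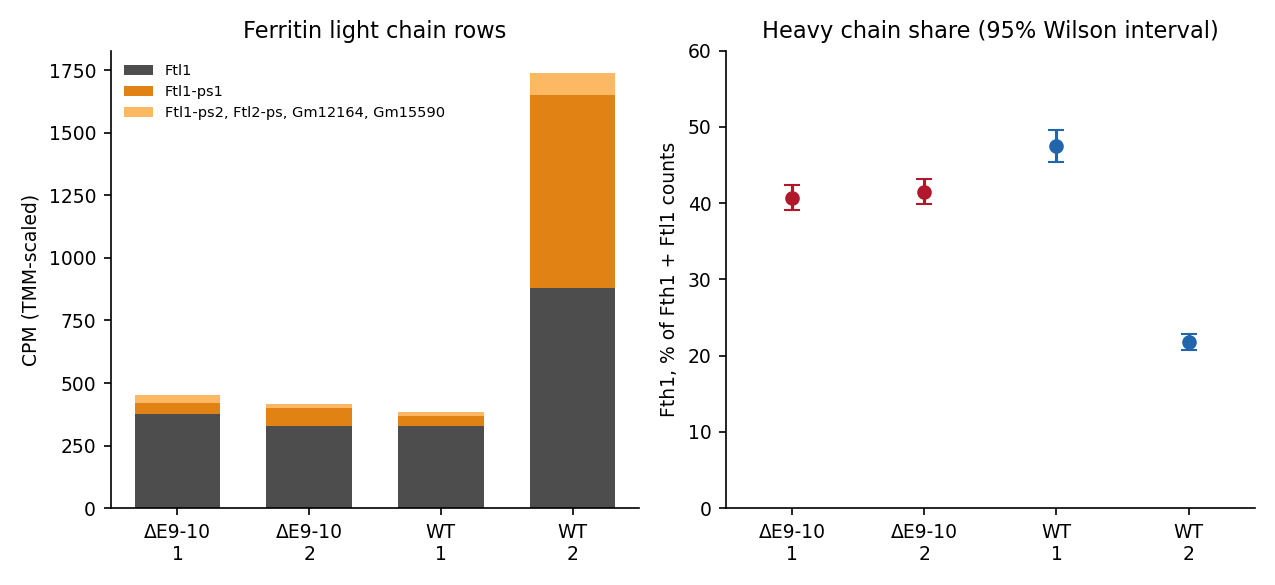
Left, CPM of *Ftl1* and of the rows for its copies, stacked by library, where BcorWT replicate 2 reached 1740 CPM and the others 385 to 454 CPM. Right, the percent of *Fth1* among *Fth1* and *Ftl1* counts with 95% Wilson intervals, lowest in BcorWT replicate 2 at 21.8%.

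Within-library ratios of the iron genes do not depend on how the libraries are scaled. *Fth1* gave 40.7% (95% Wilson interval 39.1 to 42.3%) and 41.5% (39.9 to 43.2%) of the *Fth1* and *Ftl1* counts in BcorΔE9-10. In BcorWT it gave 47.5% (45.4 to 49.6%) in replicate 1 and 21.8% (20.8 to 22.9%) in replicate 2. With the copies counted as light chain the shares were 36.3 and 35.9% in BcorΔE9-10 and 43.6 and 12.4% in BcorWT. Either way the BcorWT libraries lay on both sides of the BcorΔE9-10 libraries. Without the copies, the difference of 6.43 percentage points had p = 1 in a two-sided exact permutation test over libraries. Without BcorWT replicate 2 the sign turned, at -6.43 points. The log2 ratio of *Tfrc* to the sum of *Fth1* and *Ftl1* was -3.79 and -3.58 in BcorΔE9-10 and -4.06 and -5.11 in BcorWT. Uptake receptor relative to storage transcripts was thus higher in both BcorΔE9-10 libraries, by 0.91 on the log2 scale, with p = 0.333 in the same exact permutation test, the smallest that 2 against 2 libraries allow. Without BcorWT replicate 2 the difference was 0.38, and without BcorWT replicate 1 it was 1.43.

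Export and sensing transcripts overlapped between the genotypes. *Slc40a1* (ENSMUSG00000025993, chromosome 1 from 45908068 to 45926523) encodes ferroportin, the cellular exporter of iron, and had 143 and 204 counts in BcorΔE9-10 and 93 and 154 in BcorWT. Its levels were 26.4 and 33.3 CPM against 27.2 and 29.0 CPM, a log2 fold change of 0.09 (standard error 0.32, edgeR adjusted p = 0.983). *Aco1* (ENSMUSG00000028405, chromosome 4 from 40143081 to 40198338), whose protein is a cytosolic aconitase when it carries an iron-sulfur cluster and Irp1 when it does not, had 51 and 66 counts against 36 and 75. Its levels were 9.43 and 10.8 CPM in BcorΔE9-10 and 10.5 and 14.1 CPM in BcorWT, a log2 fold change of -0.29 (standard error 0.42, edgeR adjusted p = 0.960). *Ireb2* (ENSMUSG00000032293, chromosome 9 from 54863789 to 54912530), whose protein Irp2 is degraded when iron is plentiful, had 110 and 164 counts against 76 and 93. Its levels were 20.3 and 26.7 CPM against 22.2 and 17.5 CPM, a log2 fold change of 0.25 (standard error 0.36, edgeR adjusted p = 0.960). With 1 library left out, *Slc40a1* changed sign, from -0.0842 (without BcorΔE9-10 replicate 2) to 0.24 (without BcorΔE9-10 replicate 1). *Aco1* ran from -0.49 (without BcorWT replicate 1) to -0.06 (without BcorWT replicate 2) and *Ireb2* from 0.04 (without BcorΔE9-10 replicate 2) to 0.43 (without BcorΔE9-10 replicate 1). With all libraries every difference of these 3 genes was smaller than its standard error. Their 95% intervals ran from -0.66 to 0.83 for *Slc40a1*, from -1.26 to 0.67 for *Aco1* and from -0.57 to 1.07 for *Ireb2*.

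*Hmox1* (ENSMUSG00000005413, chromosome 8 from 75093621 to 75100589), the heme oxygenase that frees iron from heme, was the least abundant of the 9 in reads, with 3 and 18 counts in BcorΔE9-10 and 15 and 25 in BcorWT. In CPM it stood at 0.554 and 2.93 against 4.38 and 4.70, so both BcorΔE9-10 libraries lay below both BcorWT libraries. BcorΔE9-10 replicate 1, with 3 counts, was at the limit that a count of 0 allows. The log2 fold change was -1.35 (standard error 0.83, edgeR adjusted p = 0.945), with a 95% interval from -3.27 to 0.56, and it ran from -2.97 without BcorΔE9-10 replicate 2 to -0.63 without BcorΔE9-10 replicate 1. At this depth the size of the difference in *Hmox1* could not be fixed.

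**Figure D3:**
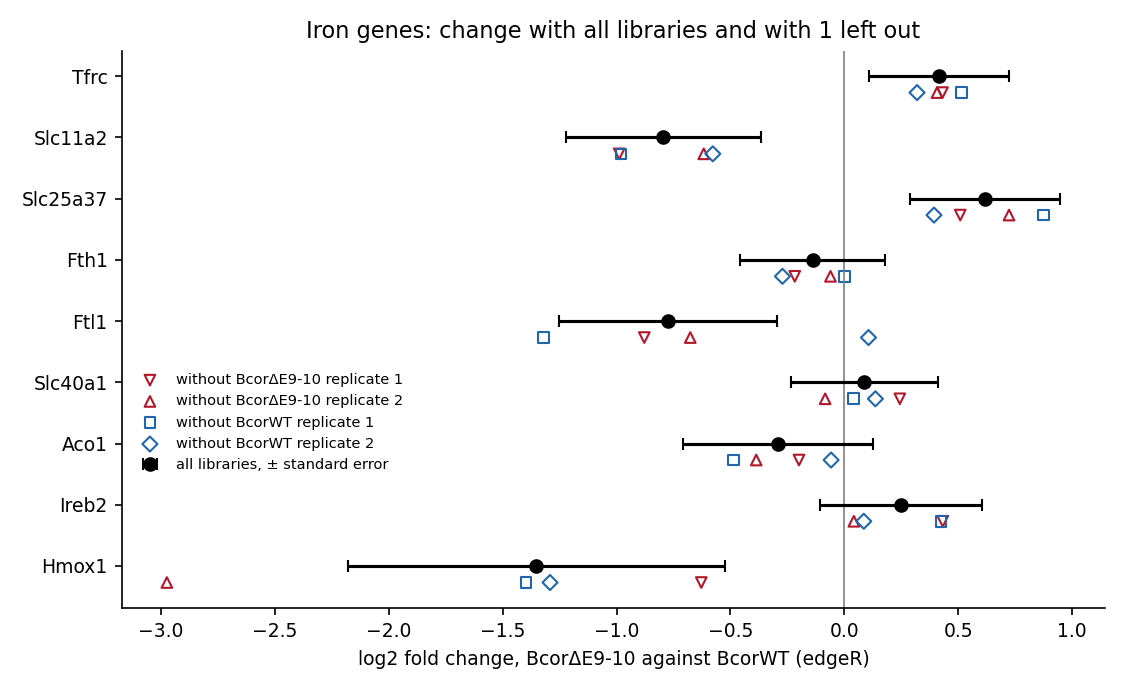
Log2 fold change of each iron gene in edgeR with all 4 libraries (black, ± standard error) and with 1 library left out (open symbols). *Ftl1* crossed 0 without BcorWT replicate 2, *Slc40a1* without BcorΔE9-10 replicate 2 and *Fth1* barely without BcorWT replicate 1, while *Tfrc*, *Slc25a37*, *Slc11a2*, *Aco1*, *Ireb2* and *Hmox1* stayed on 1 side of 0.

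The rest of the iron pathway was read in 5 further lists, and 0 of their genes reached an adjusted p under 0.05 in edgeR. Among 18 of 27 listed genes of other iron handling with a row in the table, 10 had a positive and 8 a negative log2 fold change, with a median of 0.07. A single member had an unadjusted p under 0.05, where 4.42% of all genes did, namely *Vps35*, a retromer subunit that returns endosomal cargo, at 37.5 and 40.9 CPM in BcorΔE9-10 and 27.2 and 13.9 CPM in BcorWT (log2 fold change 0.94, standard error 0.40). *Lcn2*, a lipocalin that binds iron-carrying siderophores and a neutrophil granule protein, varied within both genotypes, at 334 and 888 CPM against 528 and 2056 CPM. *Ncoa4*, the receptor that takes ferritin to lysosomes for breakdown, stood at 131 and 144 CPM against 124 and 94.8 CPM (log2 fold change 0.33). *Fbxl5*, part of the ubiquitin ligase that removes Irp2, stood at 26.6 and 41.2 CPM against 32.7 and 21.3 CPM (log2 fold change 0.34). *Pcbp1*, a chaperone that hands iron to ferritin, stood at 336 and 372 CPM against 378 and 269 CPM (log2 fold change 0.13). For *Fbxl5* and *Pcbp1* BcorWT replicate 2 alone lay below both BcorΔE9-10 libraries, and without it the log2 fold changes were 0.05 and -0.10, a comparison chosen after seeing the data. Without BcorWT replicate 1 the log2 fold changes of *Fbxl5* and *Pcbp1* were 0.67 and 0.39, and without BcorΔE9-10 replicate 1 they were 0.62 and 0.20. Without BcorΔE9-10 replicate 2 they were -0.01 and 0.06. Of the 18 genes *Vps35* and *Ncoa4* had both BcorΔE9-10 libraries above both BcorWT libraries and *Slc25a28* and *Mon1a* both below, 4 of 18 beside 33.9% of all genes.

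The mitochondrial uses of iron were read in 2 of the lists. Of 21 listed genes of iron-sulfur cluster assembly 20 had a row, with 9 positive and 11 negative log2 fold changes and a median of -0.05. The genotypes did not overlap for 8 of the 20, with 4 higher and 4 lower in BcorΔE9-10, where 33.9% of all genes did not. *Isca1*, an assembly factor, stood at 30.7 and 27.1 CPM in BcorΔE9-10 and 19.3 and 20.7 CPM in BcorWT. Its log2 fold change of 0.53 (standard error 0.32) did not pass. Among the lower ones *Hspa9*, a mitochondrial chaperone of cluster transfer, stood at 107 and 104 CPM against 132 and 128 CPM. Of 16 listed genes of heme synthesis and transport 13 had a row, with 9 positive and 4 negative log2 fold changes and a median of 0.39 beside -0.03 over all genes. None of the 13 had an unadjusted p under 0.05, and for 5 of them both BcorΔE9-10 libraries lay above both BcorWT libraries, where 16.8% of all genes did so in that direction. They included *Blvrb*, biliverdin reductase B, at 15.3 and 10.8 CPM against 7.01 and 7.53 CPM. *Ppox*, which makes protoporphyrin, was high in a single library, at 78.5 and 95.5 CPM in BcorΔE9-10, 80.3 CPM in BcorWT replicate 1 and 249 CPM in BcorWT replicate 2. *Ppox* and *Ftl1* thus shared the same high library.

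*Hmox1* and both ferritin genes are known to be repressed by Bach1, which heme inactivates, and induced by Nrf2. Of 18 listed targets and factors of this pair 16 had a row, with 9 positive and 7 negative log2 fold changes and a median of 0.05. *Bach1* itself was the only one of the 16 with an unadjusted p under 0.05, beside 4.42% of all genes, at 35.7 and 30.3 CPM in BcorΔE9-10 and 18.1 and 13.0 CPM in BcorWT. Its log2 fold change was 1.09 (standard error 0.35, edgeR adjusted p = 0.945). *Sqstm1*, an autophagy receptor induced by Nrf2, also did not overlap, at 39.0 and 40.8 CPM against 31.8 and 27.3 CPM (log2 fold change 0.43, standard error 0.31). *Nfe2l2*, the gene of Nrf2, stood at 56.4 and 74.3 CPM against 58.7 and 42.9 CPM. The 16 log2 fold changes ran from -0.52 to 1.09, and the libraries overlapped for all but *Bach1* and *Sqstm1*, 2 of 16 beside 33.9% of all genes. Of 8 listed transcripts that are known to carry an iron-responsive element outside the 9 genes, 5 had a row and their log2 fold changes ran from 0.03 to 0.69, with overlapping libraries for all 5. The one highest in BcorΔE9-10 by fold, *Cdc14a*, a phosphatase, stood at 19.4 and 28.0 CPM against 23.7 and 6.21 CPM, and *Sdhd*, a subunit of succinate dehydrogenase, at 7.76 and 31.3 CPM against 26.6 and 4.70 CPM. For both, BcorWT replicate 2 alone lay below both BcorΔE9-10 libraries, and without it the log2 fold changes were 0.01 and -0.44, a comparison likewise chosen after seeing the data. Without BcorWT replicate 1 the log2 fold changes of *Cdc14a* and *Sdhd* were 1.93 and 2.05, and without BcorΔE9-10 replicate 1 they were 0.93 and 1.02. Without BcorΔE9-10 replicate 2 they were 0.40 and -0.98.

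Because erythroid cells express *Tfrc* and *Slc25a37* at high levels, markers of other cell types were set beside the iron genes. Of 20 erythroid markers 13 had a row, 12 with a positive log2 fold change and a median of 1.24 (*Rhd* and *Rhag*, at 0 in a BcorWT library, lie above the median, which is the same by construction with both at their bound). Their summed level was 216 and 167 CPM in BcorΔE9-10 and 58.4 and 84.5 CPM in BcorWT. For 10 of the 13 both BcorΔE9-10 libraries lay above both BcorWT libraries, where 16.8% of all genes did, and 7 had an unadjusted p under 0.05 in that direction, where 1.34% of all genes did, while 0 passed adjustment in edgeR. The defining marker *Rhd* had 37 and 47 counts in BcorΔE9-10 and 0 and 1 in BcorWT, whereas *Gata1* did not follow, at 4.07 and 1.63 CPM against 1.46 and 4.14 CPM. Leaving out 1 library moved the median between 0.82 (without BcorWT replicate 1) and 1.80 (without BcorWT replicate 2). The sort selected lineage-negative, Sca-1-negative cells, yet *Itgam* (CD11b, a marker of mature myeloid cells) was read at 73.7 and 159 CPM in BcorΔE9-10 and 108 and 86.8 CPM in BcorWT, and *Ly6a* (Sca-1) had 0 to 20 counts. Most erythroid markers thus had higher values in the same libraries as *Tfrc*, *Slc25a37* and the 5 heme synthesis and transport genes without overlap, and their part in those values was not tested. Of 16 macrophage markers 4 had a row, with a summed level of 1161 and 2510 CPM against 1287 and 2675 CPM, which overlapped, and the defining markers *Adgre1* and *C1qa* were not analysed here. Of the 4, *Csf1r* (28.3 and 27.7 CPM against 35.6 and 53.3 CPM) and *Cd68* (4.25 and 3.91 CPM against 4.96 and 10.2 CPM) lay lower in BcorΔE9-10 without overlap, as *Hmox1* did. Of all genes 17.1% did so in that direction. *Vcam1* (264 and 187 CPM against 172 and 257 CPM) and *Lyz2* (865 and 2291 CPM against 1074 and 2355 CPM) overlapped. The part of macrophages in the *Hmox1* values was not tested. Of 10 neutrophil markers 8 had a negative log2 fold change, with a median of -0.62, and all 10 overlapped, as did their sum, which ranged from 63560 to 155600 CPM. Of 11 myeloid progenitor markers 8 were negative, with a median of -0.39, and 4 did not overlap (1 higher and 3 lower), near the 33.9% of all genes. The part of these cells in the iron values was not tested. Of 10 lymphoid markers the 3 with a row overlapped.

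**Figure D4:**
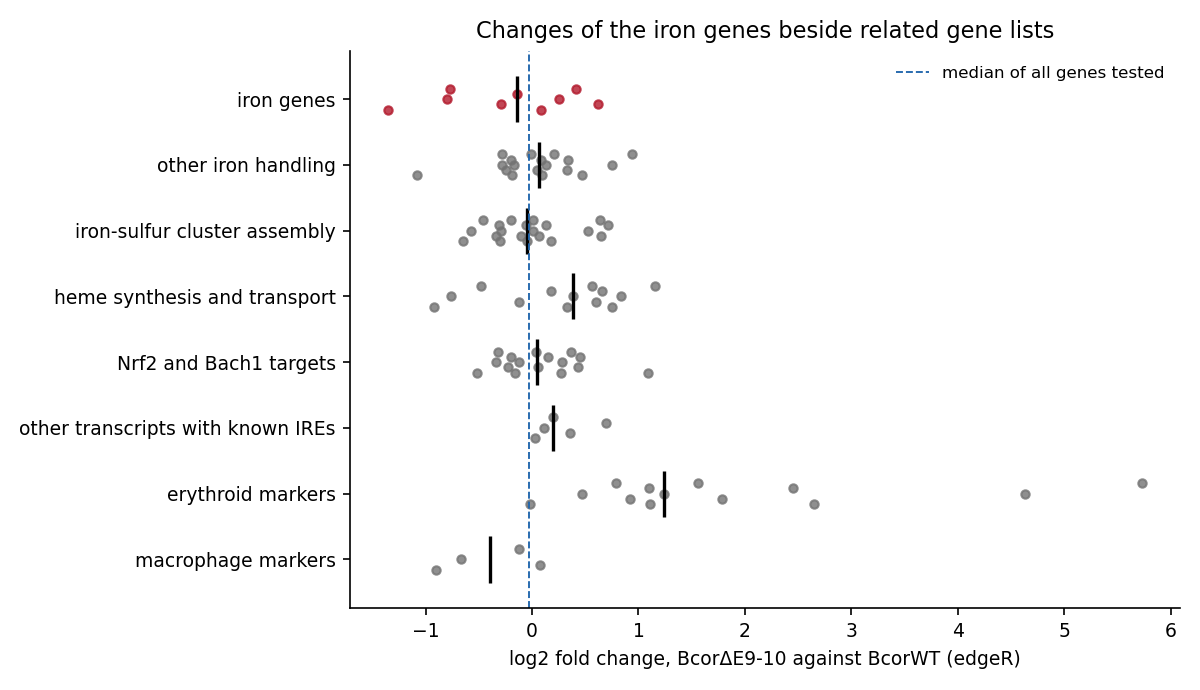
Log2 fold changes in edgeR for the genes of each list (points) with the median of each list (black bars) and of all genes tested (dashed line at -0.03). The iron genes spread to both sides of 0, while 12 of 13 erythroid markers lay above it; the rightmost 2, *Rhd* and *Rhag*, had a BcorWT library at 0, so their place depends on the prior count.

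The level of *Tfrc* over the 4 libraries was most like that of *Hsd17b11*, *Sqstm1*, *Uhmk1*, *Gm10925* and *Ubp1* among 5899 genes with a mean of at least 20 CPM. Likeness was the Euclidean distance between log2 CPM values centred on their mean over the 4 libraries, which was 0.0220 for *Hsd17b11* and 0.0425 for *Ubp1*. The distance is a description over 4 points, and all genes were read in the same 4 libraries. Of the iron genes *Ireb2* and *Slc25a37* were nearest to *Tfrc*, at 0.326 and 0.337, and *Hmox1* was farthest, at 2.28. By this distance *Ireb2* and *Slc25a37* ranked only 728 and 798 among the 5899 genes, so many genes outside the iron list lay closer.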

How the data were processed

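Quant-seq 3′ mRNA libraries of donor-derived KL cells were read in 2 BcorΔE9-10 and 2 BcorWT samples. The authors filtered reads on quality, trimmed them (cutadapt), aligned them (HISAT2, mm10) and assigned them to genes (Subread), and deposited raw counts. In BcorΔE9-10 replicate 2 and BcorWT replicate 1 the deposited values are named expected counts here, since 1 gene is not whole there, and were rounded. The filter that leaves 12067 genes is not given in the sources used here. List genes without a row were not analysed here.

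The 12067 genes were tested with edgeR 4.0.16 in R 4.3.3 (filterByExpr, which removed none, TMM, quasi-likelihood F test, prior count 0.125) and Benjamini-Hochberg adjustment. Standard errors were the log2 fold change divided by the square root of F, and 95% intervals used the quasi-likelihood degrees of freedom. Ratios within libraries were compared with exact permutation tests. Alternatives used limma 3.58.1 (voom) and DESeq2 1.42.0. Copies were found with blastn 2.17.0 (at least 90% identity over 150 bases) in GENCODE M21 transcripts, and 11948 of the symbols matched that annotation. Figures were drawn with matplotlib 3.10.9.

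Depth was 3825289.5 to 6253100.5 counts per library. The replicate numbers are those of the labels, and they were a block in an alternative only. Other alternatives changed the scaling, the filter, the prior count and the tool, left out each library in turn, or added the copies to *Ftl1*. Named genes were the 9 iron genes, in each of the 5 further iron pathway lists those with an unadjusted p under 0.05 or, where fewer than 2, the 2 with the lowest p, the 5 genes closest to *Tfrc*, *Bcor*, *Gm42418* and copies of ferritin genes. A gene that this rule names is not reported here. Cell type markers were given by counts and ranges. Single markers, further list genes, *Gm22133* and overlapping antisense genes were picked for naming with their values in view. The iron genes and lists were chosen with earlier results of these data known. The fit was tested on simulated data.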

Additional observations from a re-analysis of the deposited data

How the results depend on the processing

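Of 116 values of the 9 iron genes under 13 alternative settings, 113 kept their sign and 1 passed an adjusted p of 0.05. Some of these signs could not change. The setting without a filter repeated the reported fit, since the filter removed no gene. Adding the copies changed the counts of *Ftl1* alone among the iron genes, so the others hardly moved. All 3 sign changes came from leaving out 1 library, where the lone library of a genotype is assumed to vary like the others. Over these settings *Fth1* ran from -0.27 to 0.00130, *Ftl1* from -1.32 to 0.11 and *Slc40a1* from -0.0842 to 0.24 as log2 fold changes. The iron genes past an adjusted p of 0.05 numbered 0 to 1 with a library left out, the 1 being *Ftl1* without BcorWT replicate 1 (adjusted p = 0.0392 in edgeR), and 0 in each of the other settings. The difference in the heavy chain share ran from -6.43 to 19.3 points. Of all genes, 2 passed in edgeR, 5 with at least 10 counts in every library (which drops *Hmox1*), 4 in limma-voom and 43 in DESeq2, and 6 to 596 with a library left out, most without BcorWT replicate 1. With the replicate number as a block 14 genes passed and 0 iron genes. The labels name no litter or batch behind the numbers, and deviations of same-numbered libraries had a correlation of -0.094. The cause of these shifts was not tested. With 2 libraries per genotype and 3 counts at 0.489 to 0.876 CPM, depth limits *Hmox1* most.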
